A study of Rattus norvegicus with 10 samples.

Results

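The mitochondrial genome is a small circular DNA that muscle fibres carry in many copies. The deposited table lists 37 features on it, chosen here as every feature on chromosome MT, of 32883 features in all: 13 messenger genes, 2 ribosomal RNA genes and 22 transfer RNA genes. The RNA came from Sprague Dawley rat muscle and makes 3 libraries labelled TZG (26, 27 and 43, titled as drug samples), 3 labelled MPS (10, 11 and 14) and 4 labelled NC (4, 5, 6 and 7). MPS is myofascial pain syndrome, a painful condition of skeletal muscle, and the series is titled for Tianhe Zhuifeng liquid extract, and the labels do not spell out NC or TZG. The labels give no age, sex, muscle, dose or time, do not say whether TZG rats carried the pain model, and do not say that samples are separate animals, so p-values measure the spread between these samples only.

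The 13 messengers of this genome encode core subunits of the respiratory chain and of ATP synthase, the machinery that makes ATP from oxygen, while all the other subunits come from nuclear genes. Both strands are copied as long precursors. The transfer RNAs lie between most of the messengers and are cut out of the precursor, which frees the messengers, and these then receive short poly(A) tails. In skeletal muscle the amount of mitochondrial RNA is known to follow the oxidative capacity of the fibres.

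Each library held between 12616160 and 18179144 counts. Total counts of chromosome MT ran between 1324505 (MPS 14) and 5435271 (TZG 43), so that counting error is small beside the spread between libraries: exact 95% binomial (Clopper-Pearson) intervals of the share of a library's counts were at most 0.0508 percentage points wide, and they cover counting error only. MPS 14 stood apart from all other libraries. Its 5 muscle marker genes summed to 5168 CPM (counts scaled by the library total), against 91155 to 127398 CPM in the other 9 libraries, and its 7 lymphoid marker genes summed to 6960 CPM, against at most 20.4 CPM elsewhere. Glycam1, a defining gene of lymph node vessels, was at 1560 CPM in MPS 14 and at 0 in the other 9 libraries. Every result that uses MPS 14 is therefore given with and without it. In a piece of tissue, fewer muscle cells and less RNA per cell cannot be told apart.

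Positions are those of the deposited table, whose genome build is not given in the sources used here. Following them along chromosome MT, a transfer RNA gene at bases 1 to 67 is followed by the shorter ribosomal RNA gene (68 to 1025), the longer one (1094 to 2664), Mt-nd1 (2740 to 3694), Mt-nd2 (3904 to 4942), Mt-co1 (5323 to 6867), Mt-co2 (7006 to 7689), Mt-atp8 (7758 to 7961), Mt-atp6 (7919 to 8599), Mt-co3 (8599 to 9382), Mt-nd3 (9451 to 9798), Mt-nd4l (9870 to 10166), Mt-nd4 (10160 to 11537), Mt-nd5 (11736 to 13565), Mt-nd6 (13543 to 14061) and Mt-cyb (14136 to 15278). The table names the amino acid of no transfer RNA, so these genes are numbered here 1 to 22 in the order of their positions. Some features share bases: Mt-atp8 and Mt-atp6 overlap by 43 bases, Mt-nd5 and Mt-nd6 by 23, and Mt-nd4l and Mt-nd4 by 7. In mammals Mt-nd6 is the sole messenger coded on the other strand. Whether the counting used strand, and how it treated reads over a shared stretch or a gene boundary, is not stated, so values of overlapping and adjoining features are uncertain to that extent.

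Chromosome MT took 18.7%, 25.4% and 38.6% of all counts in TZG 26, 27 and 43. The share was 25.6%, 21.4% and 9.71% in MPS 10, 11 and 14. In NC 4, 5, 6 and 7 it was 24.5%, 30.1%, 18.7% and 27.6%. The 3 groups overlapped: TZG held both the lowest share outside MPS 14 and the highest of all, and the mean was 27.6% ± 10.1 (SD, n = 3) in TZG and 18.9% ± 8.24 (n = 3) in MPS, against 25.2% ± 4.93 (n = 4) in NC. Without MPS 14 the MPS mean was 23.5% ± 2.95 (n = 2). Messengers made up 97.3% to 98.8% of the counts on chromosome MT in each library, ribosomal RNA 1.03% to 2.53% and transfer RNA 0.108% to 0.272%. These are libraries prepared for messenger RNA, in which the ribosomal RNAs, by far the most abundant mitochondrial RNAs of a cell, are not the aim of the capture.

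**Figure D1:**
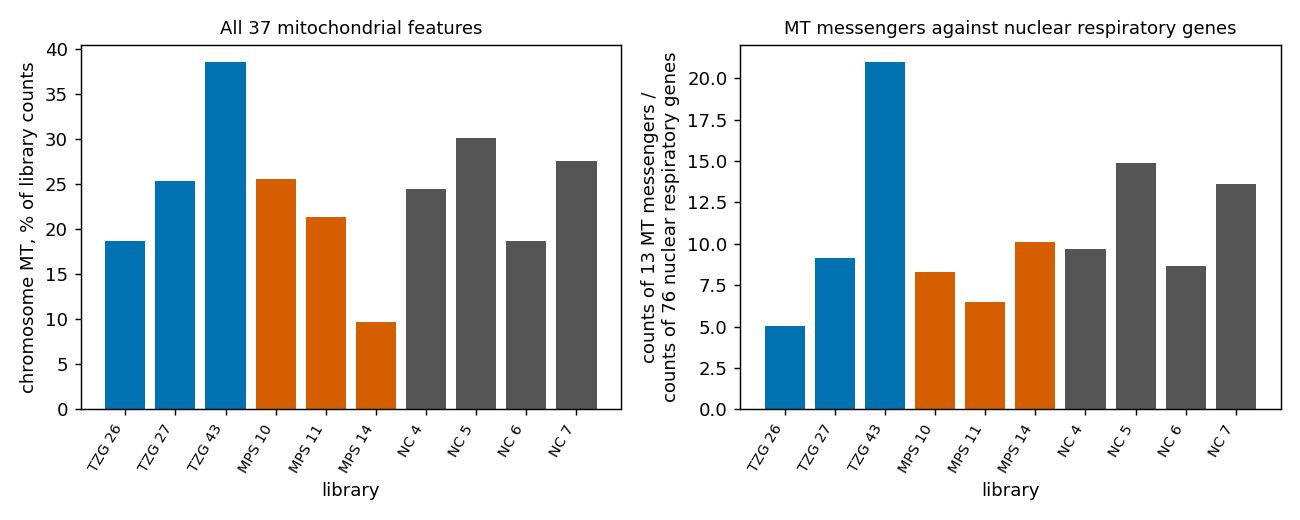
Left, the share of each library's counts on chromosome MT, in percent. Right, the counts of the 13 mitochondrial messengers divided by those of 76 nuclear genes for respiratory chain subunits. One bar is 1 library (TZG blue, MPS orange, NC grey). The shares of the groups overlap, with 38.6% in TZG 43 the highest and 9.71% in MPS 14 the lowest.

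Slow fibres are among the oxidative fibres of muscle, but not the only ones. Myh7, their myosin heavy chain, stood at 0.191, 1310 and 26.8 CPM in TZG 26, 27 and 43, at 603, 1083 and 41.0 CPM in MPS 10, 11 and 14, and at 0.147, 0.317, 0.372 and 3.05 CPM in NC libraries 4, 5, 6 and 7. TZG 27, MPS 10 and MPS 11, where 6 slow fibre genes summed to 3070, 1336 and 2520 CPM, gave 25.4%, 25.6% and 21.4% of their counts to chromosome MT. In the NC libraries the same 6 genes summed to only 141 to 223 CPM, and the mitochondrial share of 18.7% to 30.1% ran both below and above those values. TZG 43, with the highest share, had 152 CPM of slow fibre genes. It also had the most red blood cell RNA of any library (3 genes, 3145 CPM, against 121 to 1810 CPM in the other 9), the most fibroblast RNA (4 genes, 2333 CPM, against 318 to 1415 CPM) and the least endothelial RNA (3 genes, 90.6 CPM, against 291 to 632 CPM). The part of these other cells in the share was not tested.

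Levels of different genes were compared per length, as the deposited FPKM (here, CPM per kilobase of the gene), over the 9 libraries other than MPS 14. The messengers of complex IV, cytochrome c oxidase, stood highest. Mt-co1, its catalytic subunit, averaged 49739 ± 13518 FPKM (SD, n = 9), Mt-co3, a core subunit beside it, 46011 ± 10284 FPKM, and Mt-co2, which takes electrons from cytochrome c, 35652 ± 10718 FPKM. The ranges of these neighbours overlapped, so their order is not firm. Mt-cyb, the cytochrome b of complex III, followed with 24037 ± 6000 FPKM.

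Complex I, the NADH dehydrogenase that feeds electrons into the chain, has 7 of its core subunits on this genome. Their levels ran between 19750 ± 4213 FPKM for Mt-nd1 and 4763 ± 1460 FPKM for Mt-nd5 (SD, n = 9), with Mt-nd2 at 16281, Mt-nd3 at 13815, Mt-nd4 at 11642, Mt-nd4l at 10316 and Mt-nd6 at 5031 FPKM in between. Mt-nd5 and Mt-nd6, which lie on opposite strands and share bases, were the lowest messengers and could not be told apart (2677 to 6887 FPKM for Mt-nd5 and 3349 to 7543 FPKM for Mt-nd6). ATP synthase has its messengers Mt-atp8, a part of the stalk, at 18444 ± 6338 FPKM and Mt-atp6, the proton channel, at 17611 ± 15357 FPKM; the wide spread of Mt-atp6 came from NC 7, described below. The shorter and the longer ribosomal RNA stood at 2502 ± 585 and 1184 ± 322 FPKM, under every messenger on average.

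**Figure D2:**
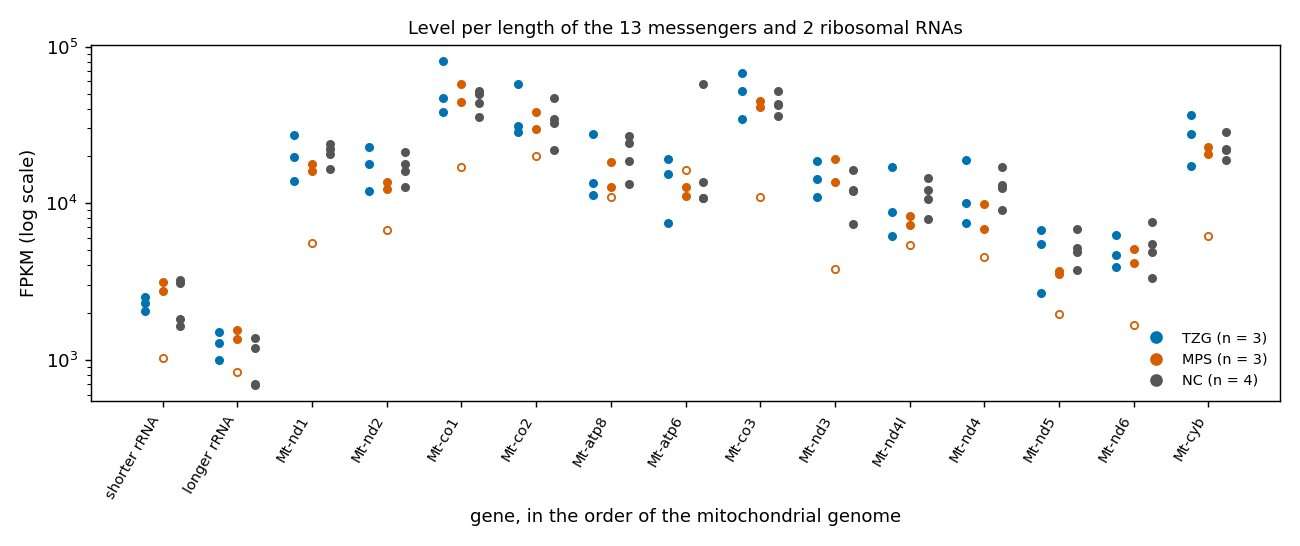
FPKM on a log axis for the 13 messengers and 2 ribosomal RNAs in the order of the mitochondrial genome, with TZG left (blue), MPS in the middle (orange, MPS 14 open) and NC right (grey). One point is 1 library. The complex IV messengers average 35652 to 49739 FPKM in the 9 libraries other than MPS 14, and Mt-atp6 has 1 high NC point, at 57609 FPKM.

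Within the messenger pool, the mix of complexes differed a little between libraries. The 7 messengers of complex I made up 27.2%, 28.1% and 26.96% of messenger counts across TZG 26, 27 and 43 and 25.3%, 25.5% and 27.4% in MPS 10, 11 and 14, against 30.2%, 32.1%, 29.8% and 28.5% in NC libraries 4, 5, 6 and 7. All 3 TZG and all 3 MPS libraries thus lay below all 4 NC libraries. With Mt-atp6 left out of the pool, as a check chosen after its values were seen, the complex I share was 28.01%, 29.4% and 27.9% in TZG and 26.1%, 26.6% and 31.0% in MPS, against 31.2%, 33.2%, 31.1% and 33.3% in NC. The groups again did not overlap, but MPS 14 (30.99%) and NC 6 (31.08%) nearly met. No test was run on these shares, since the parts of a whole are not independent of each other.

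Among the 7, Mt-nd1 took 7.29%, 7.60% and 6.83% of messenger counts across TZG 26, 27 and 43 and 6.77%, 7.31% and 5.58% in MPS 10, 11 and 14, against 8.09%, 7.69%, 8.58% and 7.83% in NC libraries 4, 5, 6 and 7. It was the only messenger of the 13 whose share lay below NC in both other groups with every library included, and with Mt-atp6 left out of the pool that held for MPS but no longer for TZG. In CPM, with every library included, 5.96% of all genes lay wholly below NC in MPS and 24.4% in TZG. Shares of the messenger pool are another measure, without a background over all genes, so 1 of 13 cannot be called set apart. Mt-nd4 took 5.63%, 5.53% and 6.83% in TZG and 5.42%, 4.50% and 6.58% in MPS, against 7.44%, 7.98%, 6.77% and 6.40% in NC. Mt-nd3 ran the other way in MPS 10 and 11, with 2.68% and 2.27%, against 1.40% to 1.92% in NC; it was 1.41% in MPS 14. Without MPS 14, 5 messenger shares lay wholly below NC in MPS (Mt-nd1, Mt-nd2, Mt-nd4l, Mt-nd4 and Mt-nd5) and 2 wholly above it (Mt-co1 and Mt-nd3), with n = 2 for MPS. In CPM, which is not a share of the messenger pool, separation of 2 from 4 libraries is common here. Of all genes, 31.6% lay wholly lower and 9.44% wholly higher.

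Complex IV messengers made up 57.7%, 54.1% and 57.1% of messenger counts across TZG 26, 27 and 43 and 59.7%, 57.9% and 51.2% in MPS 10, 11 and 14, against 54.8%, 51.9%, 53.1% and 45.8% in NC. These groups overlapped, through TZG 27 and MPS 14. With Mt-atp6 left out of the pool the share was 59.4%, 56.4% and 59.2% in TZG and 61.6%, 60.4% and 57.95% in MPS, against 56.5%, 53.6%, 55.2% and 53.5% in NC, so that all 3 MPS libraries lay above NC while TZG still overlapped it. Mt-co1 alone took 29.2% to 32.8% in TZG, 27.8% to 35.3% in MPS and 24.9% to 31.6% in NC. Mt-cyb took 10.8% to 12.7% in TZG and 7.41% to 11.3% in MPS, against 9.41% to 11.7% in NC, with overlap in both cases.

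**Figure D3:**
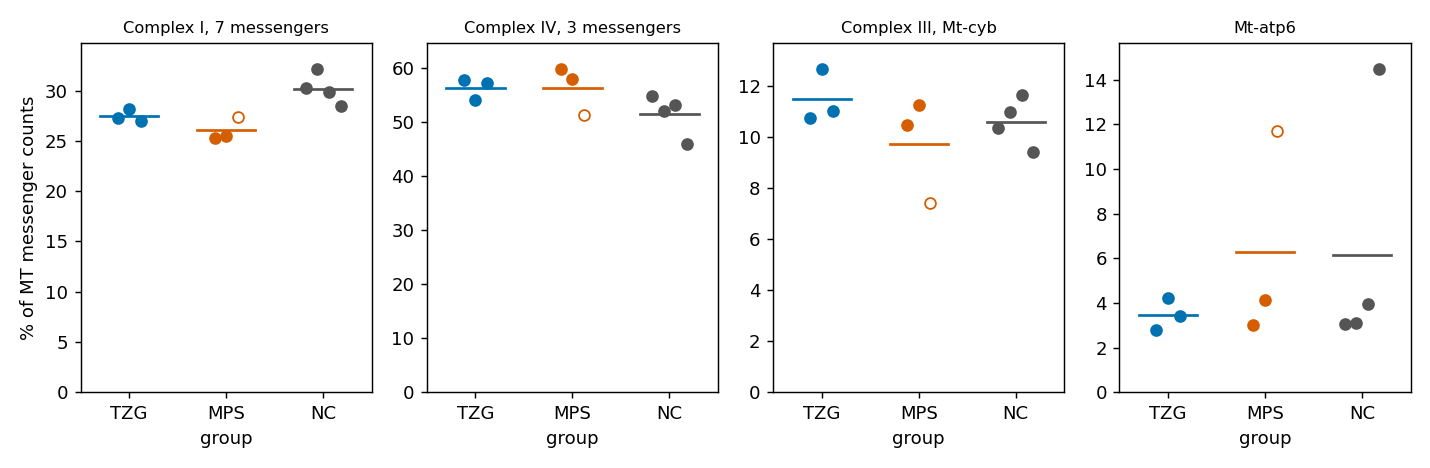
Percent of the mitochondrial messenger counts taken by the complex I, complex IV and complex III messengers and by Mt-atp6, each on its own axis starting at 0. Points are libraries (MPS 14 open) and lines are group means with MPS 14 included. The complex I points of TZG (26.96% to 28.1%) and MPS (25.3% to 27.4%) lie below those of NC (28.5% to 32.1%), and Mt-atp6 is high in NC 7 (14.5%) and MPS 14 (11.7%).

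Mt-atp6 stood far higher in 1 NC and 1 MPS library than in the rest of its group, as a share of the messengers. It took 2.79%, 4.21% and 3.42% of messenger counts across TZG 26, 27 and 43 and 3.02%, 4.15% and 11.7% in MPS 10, 11 and 14, against 3.04%, 3.13%, 3.97% and 14.5% in NC libraries 4, 5, 6 and 7. NC 7 held 527805 counts of it, or 39232 CPM, where NC 4, 5 and 6 held 7345, 9240 and 7307 CPM. In mammals Mt-atp8 and Mt-atp6 are read from 1 shared messenger, with the start of Mt-atp6 inside Mt-atp8, and Mt-co3 follows without a transfer RNA between them. Neither neighbour was raised with it: Mt-atp8 was at 4972 CPM in NC 7, against 2712 to 5437 CPM in NC 4, 5 and 6, and Mt-co3 at 33029 CPM, against 28149 to 41039 CPM. The ratio of Mt-atp6 to Mt-co3 counts was 1.29 in MPS 14 and 1.19 in NC 7, and between 0.189 and 0.268 in the other 8 libraries. The levels behind these ratios differed. In MPS 14 Mt-atp6 was at 11075 CPM, against 7554 and 8645 CPM in MPS 10 and 11 and 5099 to 13038 CPM in TZG. Mt-co3 was at only 8564 CPM in MPS 14, against 35147 and 32298 CPM in MPS 10 and 11. Removing Mt-atp6 lowered the mitochondrial share of NC 7 to 23.7% of its library total, within the 17.98% to 29.2% of the other NC libraries treated alike.

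The shorter ribosomal RNA gene was at 2193, 2417 and 1950 CPM across TZG 26, 27 and 43 and at 2633, 2992 and 978 CPM in MPS 10, 11 and 14, against 1757, 3093, 1584 and 2949 CPM in NC libraries 4, 5, 6 and 7. The longer one was at 1560, 2376 and 2013 CPM in TZG and 2145, 2418 and 1314 CPM in MPS, against 1090, 2173, 1097 and 1868 CPM in NC. All groups overlapped in both genes, except that without MPS 14 the TZG values of the shorter gene lay below both MPS values. The ratio of longer to shorter was 0.711, 0.983 and 1.03 in TZG and 0.815, 0.808 and 1.34 in MPS, against 0.620, 0.702, 0.693 and 0.633 in NC, so that every TZG and every MPS library lay above every NC library. For TZG the gap was narrow, with 0.711 in TZG 26 against 0.702 in NC 5. As a ratio it shows unequal levels, not which of the genes differed.

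The 22 transfer RNA genes, each between 60 and 75 bases long, together had 7826, 6739 and 7611 counts in TZG 26, 27 and 43, 11494, 8636 and 1592 in MPS 10, 11 and 14, and 5402, 6016, 3573 and 4014 in NC libraries 4, 5, 6 and 7. Their summed level was 497, 506 and 540 CPM in TZG and 697, 475 and 117 CPM in MPS, against 398, 477, 266 and 298 CPM in NC. TZG lay above NC throughout, by a narrow gap, while MPS overlapped NC, also without MPS 14. Whether these counts are mature transfer RNA, which is too short and too structured for most messenger libraries, or uncut precursor and neighbouring messenger ends was not tested.

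Few of the 22 carried most of the counts. Summed over the 10 libraries, the 4 with the most counts were tRNA 20 (bases 14062 to 14130, between Mt-nd6 and Mt-cyb), with 33.3% of all transfer RNA counts, tRNA 9 (5081 to 5152) with 11.3%, tRNA 6 (3835 to 3903) with 10.5% and tRNA 10 (5185 to 5252) with 9.97%. tRNA 20 had the most counts in each library, while the order after it differed between libraries. tRNA 9 and tRNA 10 belong to a row of 5 transfer RNA genes between Mt-nd2 and Mt-co1. tRNA 20 was at 138, 145 and 161 CPM in TZG and 212, 167 and 28.1 CPM in MPS, against 128, 199, 106 and 147 CPM in NC, with overlap. Without MPS 14, however, its TZG values all lay below both MPS values. tRNA 9 was at 65.7, 59.6 and 57.1 CPM in TZG and 102, 62.0 and 4.10 CPM in MPS, against 39.1, 46.0, 21.3 and 14.6 CPM in NC. At the other end, tRNA 1 had 1 to 6 counts in 9 libraries and none in MPS 14, where 3 counts, the limit that a count of 0 allows, would be 0.220 CPM.

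**Figure D4:**
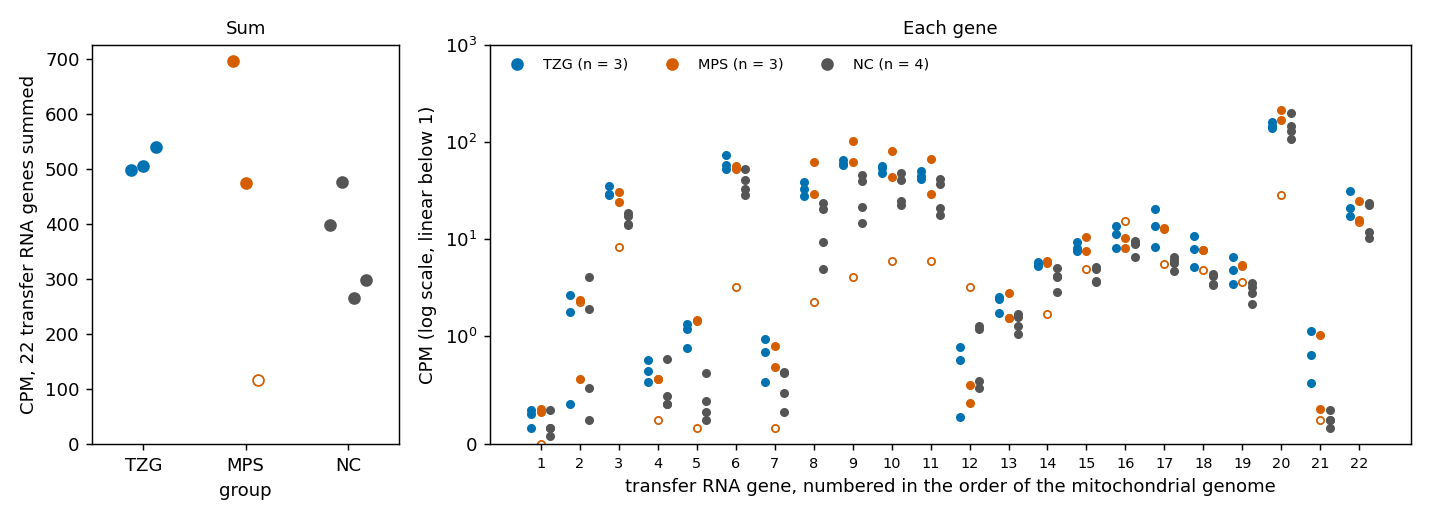
Left, CPM summed over the 22 transfer RNA genes by group, with 1 point per library. Right, CPM of each gene in genome order on a log axis that is linear below 1, with TZG left (blue), MPS in the middle (orange, MPS 14 open) and NC right (grey). The TZG sums (497 to 540 CPM) lie above the NC sums (266 to 477 CPM), and tRNA 20 has the highest level.

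MPS was compared with NC to see what the pain model did to these genes. With all libraries, no mitochondrial gene of the 35 with enough counts to test passed the edgeR quasi-likelihood test at an adjusted p under 0.05 (tRNA 1 and tRNA 4 were too low), and none passed in DESeq2 or limma-voom or at an unadjusted p under 0.05. The same test called 0% of all 13535 genes. Log2 fold changes of the 13 messengers had a median of -0.52, against 0.13 over all genes tested, and those of the 20 transfer RNA genes a median of 0.53 (19 of 20 positive), which in limma-voom was 0.24 (14 of 20). The groups did not overlap for Mt-nd5, lower in MPS, or for tRNA 18 and tRNA 19, higher in MPS, where 5.96% of all genes lay wholly lower and 3.51% wholly higher.

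Without MPS 14, 2 of 36 genes tested rose in MPS against NC, both transfer RNA genes. They are tRNA 15 (bases 9383 to 9450, between Mt-co3 and Mt-nd3) and tRNA 17 (bases 11538 to 11605, right after Mt-nd4), both chosen for mention after their values were seen. tRNA 15 stood at 10.4 and 7.54 CPM in MPS 10 and 11, against 5.15, 3.65, 3.72 and 4.91 CPM in NC libraries 4, 5, 6 and 7. Its counts were 172 and 137, against 70, 46, 50 and 66. Its log2 fold change was 1.299 ± 0.26 (SE; edgeR adjusted p = 0.0352). tRNA 17 stood at 12.9 and 12.7 CPM in MPS, against 6.04, 5.63, 4.69 and 6.47 CPM in NC, with 213 and 230 counts against 82, 71, 63 and 87. Its log2 fold change was 1.43 ± 0.31 (SE; edgeR adjusted p = 0.0411). The test called 2.06% of all 13719 genes higher and 0.321% lower, and a count as small as 2 of 36 is not set apart from that background.

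These calls were not firm. Leaving out any 1 of the 6 libraries compared ended both of them, with edgeR adjusted p between 0.0619 and 0.207 for tRNA 15 and between 0.0876 and 0.281 for tRNA 17, and scaling by library totals alone ended them too. Their direction stayed positive in each of those fits, with log2 fold changes of 1.14 to 1.48 and 1.28 to 1.49 over the libraries left out. In MPS 14 itself tRNA 15 was at 4.91 CPM and tRNA 17 at 5.57 CPM, inside the NC range.

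The other 19 transfer RNA genes tested without MPS 14 did not pass in edgeR. DESeq2 called 8 transfer RNA genes in all, beside 8.02% of all genes, and limma-voom called 3, beside 2.82% of all genes. With tRNA 15 and tRNA 17 included, 20 of 21 had a positive log2 fold change (19 in DESeq2, with RLE factors or with library totals), with a median of 0.93, against -0.02 over all genes tested, and 13 had an unadjusted p under 0.05 (11 of the other 19), where 20.8% of all genes did. In 12 of them both MPS libraries lay above all 4 NC libraries (10 of the other 19), against 9.44% of all genes. Those 12 include the row of tRNA 17, tRNA 18 and tRNA 19 between Mt-nd4 and Mt-nd5, which summed to 431 and 466 counts in MPS 10 and 11, against 142 to 194 in NC, and to 191 in MPS 14. RNA of other cells differed between the same libraries. The 5 macrophage genes summed to 57.8 and 42.4 CPM in MPS 10 and 11, against 128 to 292 CPM in NC, the 7 lymphoid genes to 5.64 and 2.75 CPM, against 9.27 to 15.5 CPM, the 4 fibroblast genes to 379 and 335 CPM, against 705 to 1415 CPM, and the 6 slow fibre genes to 1336 and 2520 CPM, against 141 to 223 CPM. Their part in the transfer RNA values was not tested.

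The messengers did not share that lean. Without MPS 14, 6 of 13 had a positive log2 fold change in MPS against NC (2 of 13 under scaling by library totals, which moves the median of all genes to -0.30), with a median of -0.05 and a range between -0.70 ± 0.72 (SE) for Mt-atp6 and 0.70 ± 0.39 for Mt-nd3. None passed (smallest edgeR adjusted p = 0.344, and 0 at an unadjusted p under 0.05, in DESeq2 or in limma-voom). Mt-co1 was at 88417 and 68006 CPM in MPS 10 and 11 and 26289 CPM in MPS 14, against 76350, 80197, 54512 and 67466 CPM in NC libraries 4, 5, 6 and 7. Mt-cyb was at 26224 and 23444 CPM in MPS 10 and 11 and 7019 CPM in MPS 14, against 25052, 32471, 21473 and 25499 CPM in NC. Mt-nd5 was at 6793, 6503 and 3604 CPM in MPS 10, 11 and 14, against 8946, 12603, 6860 and 9474 CPM in NC, and was the sole messenger whose groups did not overlap, where 31.6% of all genes lay wholly lower.

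TZG was compared with MPS. The labels do not say whether TZG rats carried the pain model, so this is a difference between labelled groups only. No mitochondrial gene passed the edgeR test, with all libraries (35 tested; smallest adjusted p = 0.775) or without MPS 14 (36 tested; smallest adjusted p = 0.970), and none passed in DESeq2, in limma-voom or at an unadjusted p under 0.05. Over all genes it called 0% with all libraries and 0.00729% without MPS 14. All 13 messengers had a positive log2 fold change, with a median of 0.93 with all libraries and 0.45 without MPS 14; in the second case 12 of 13 did under library totals and in limma-voom. The medians over all genes were -0.05 and 0.02. Without TZG 43 the median over all 36 mitochondrial genes was -0.023, against 0.33 with it, both without MPS 14. Mt-nd4 was at 10278, 13759 and 26026 CPM in TZG 26, 27 and 43, against 13569, 9381 and 6230 CPM in MPS 10, 11 and 14. The transfer RNA genes had a median of 0.53 with all libraries and 0.18 without MPS 14. tRNA 15 and tRNA 17 differed by 0.03 ± 0.28 and 0.27 ± 0.34 (SE) without MPS 14.

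TZG was also compared with NC; this comparison and that of MPS with NC share the 4 NC libraries, so their values are not independent. With all libraries no mitochondrial gene passed in edgeR (35 tested; smallest adjusted p = 0.836), DESeq2 or limma-voom, where the edgeR test called 0% of all genes; 9 transfer RNA genes had an unadjusted p under 0.05, and 5.63% of all genes did. Without MPS 14, which is no member of either group but adds to the shared estimate of the spread, none passed in edgeR (36 tested; smallest adjusted p = 0.0616) or limma-voom, 9 passed in DESeq2 and 17 had an unadjusted p under 0.05. Over all genes edgeR then called 0.051% and DESeq2 6.25%, and 19% had an unadjusted p under 0.05.

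Transfer RNA genes again had the higher values. In 11 of 22 all 3 TZG libraries lay above all 4 NC libraries, where 1.4% of all genes did, and none lay wholly below, where 24.4% of all genes did. Their median log2 fold change was 1.09 with all libraries and 1.10 without MPS 14, against 0.02 and 0.03 over all genes; under library totals it was 0.67 and 0.66, where the median of all genes was -0.39 in both. tRNA 17 was at 8.26, 20.2 and 13.8 CPM in TZG 26, 27 and 43, against 6.04, 5.63, 4.69 and 6.47 CPM in NC, a log2 fold change of 1.70 ± 0.28 (SE; edgeR adjusted p = 0.0616 without MPS 14). tRNA 15 was at 9.21, 8.03 and 7.45 CPM in TZG, against 5.15, 3.65, 3.72 and 4.91 CPM in NC, a log2 fold change of 1.33 ± 0.24 (edgeR adjusted p = 0.0616). tRNA 3 (bases 2665 to 2739, between the longer ribosomal RNA gene and Mt-nd1), chosen after its values were seen, was at 29.2, 28.4 and 35.3 CPM in TZG, against 18.6, 17.4, 13.9 and 14.3 CPM in NC. In the authors' deposited table, 7 transfer RNA genes had a q-value under 0.05 for TZG against NC (tRNA 3, 6, 8, 9, 15, 17 and 18, all higher in TZG), no other mitochondrial gene did, and none did in the other 2 comparisons. The share of all genes under that limit was not counted, so these 7 have no background beside them. The q-values also come from the same libraries.

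The messengers had smaller values in this comparison. With TMM scaling 12 of 13 had a positive log2 fold change, with a median of 0.40 with all libraries and 0.42 without MPS 14, but under library totals only 6 of 13 did, with a median of -0.03 where that of all genes was -0.39, and in limma-voom all 13 did. Mt-co1 was at 58850, 72628 and 125195 CPM in TZG, against 76350, 80197, 54512 and 67466 CPM in NC, a log2 fold change of 0.76 ± 0.37 (SE; edgeR adjusted p = 0.290 without MPS 14). Mt-cyb was at 19629, 31511 and 41963 CPM in TZG, against 25052, 32471, 21473 and 25499 CPM in NC, a log2 fold change of 0.70 ± 0.34. Mt-atp6 was the sole messenger with a negative value, -0.28 ± 0.62, with NC 7 included. No messenger separated the groups.

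**Figure D5:**
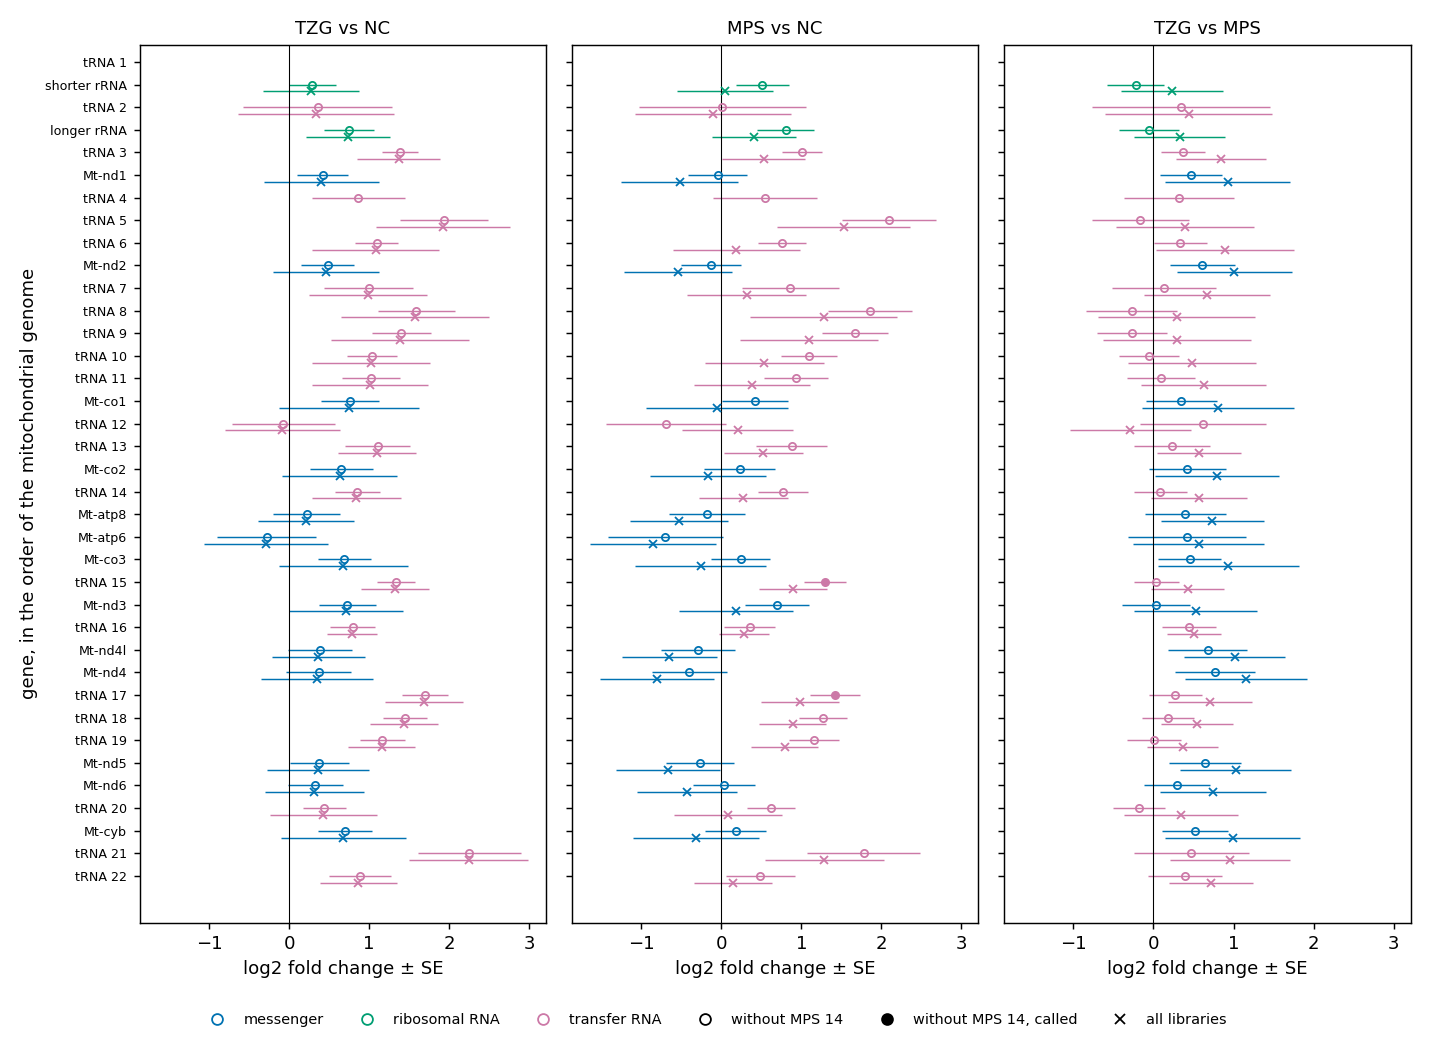
Log2 fold change with its SE from edgeR for each mitochondrial gene in genome order, for TZG against NC, MPS against NC and TZG against MPS. Circles are fits without MPS 14 (filled where the adjusted p is under 0.05), crosses are fits with all libraries; messengers are blue, ribosomal RNAs green and transfer RNAs pink. Only tRNA 15 and tRNA 17 in MPS against NC are filled, and genes too low to test have no mark.

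Transfer RNA genes are the shortest features here, and fold changes in these libraries vary with gene length, so short features outside chromosome MT were examined too, a choice made after the values were seen. For TZG against NC without MPS 14, the 64 tested features of at most 200 bases had a median log2 fold change of -0.09 and none lay wholly above NC. The 467 of 201 to 500 bases had a median of 0.45, and 8.57% lay wholly above. For MPS against NC the same classes had medians of 0.11 and 0.36, of which 9.38% and 32.8% lay wholly above, and edgeR called none of the 64 higher but 13.3% of the 467, with 6.28% of the 1082 features of 501 to 1000 bases. The part of length in the transfer RNA values was not tested further.

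Nuclear genes supply the rest of the respiratory chain and all the machinery that copies and processes mitochondrial RNA. Of 76 nuclear genes for subunits of the chain and of ATP synthase that could be tested, 16 rose in MPS against NC without MPS 14 and none fell, where 2.06% of all genes rose. Their median log2 fold change was 0.82, against -0.02 over all genes, beside 0 of 13 mitochondrial messengers called and their median of -0.05. With all libraries none of the 76 passed (2 at an unadjusted p under 0.05, where 11% of all genes had one) and the median was 0.35, against 0.13 over all genes. The difference between these groups of genes was not tested. Neither was the part of gene length in the values of the 76, although fold changes varied with length as given above. Uqcr10 and Uqcr11, small subunits of complex III, rose by 1.68 ± 0.27 and 2.07 ± 0.35 (SE; edgeR adjusted p = 0.0162 and 0.0187). For TZG against NC none of the 76 passed in edgeR in either fit (66 at an unadjusted p under 0.05 without MPS 14, where 19% of all genes had one, and 3 with all libraries, where 5.63% had one), and 75 of 76 had a positive value, with medians of 0.77 and 0.76. For TZG against MPS none passed and none had an unadjusted p under 0.05; the median was -0.05 without MPS 14 and 0.40 with it.

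Set against each other, the counts of the 13 mitochondrial messengers were 5.04, 9.14 and 21.0 times those of the 76 nuclear genes across TZG 26, 27 and 43 and 8.29, 6.50 and 10.1 times in MPS 10, 11 and 14, against 9.70, 14.9, 8.68 and 13.6 times in NC libraries 4, 5, 6 and 7. MPS 10 and MPS 11 lay below all 4 NC libraries and MPS 14 did not. TZG held both the lowest and the highest ratio. TZG 26, where it was lowest, had the highest nuclear sum of the 10 libraries (36255 CPM), and its mitochondrial messengers summed to 182558 CPM, close to the 184164 CPM of NC 6. TZG 43, where it was highest, had a nuclear sum of 18178 CPM, which MPS 14 alone fell short of with 9387 CPM; scaled to CPM of the counts outside chromosome MT it was 29594 in TZG 43, within the 26114 to 33007 of NC.

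Genes that control mitochondrial RNA were tested in the same fits. Of 17 tested genes for mitochondrial transcription and DNA copying, none passed in any comparison in edgeR, in either fit. Without MPS 14, 4 had an unadjusted p under 0.05 in MPS against NC and 2 in TZG against NC, beside 20.8% and 19% of all genes. Tfb2m, a factor that starts mitochondrial transcription, had a log2 fold change of -0.65 ± 0.24 (SE) in MPS against NC and -0.65 ± 0.21 in TZG against NC without MPS 14 (edgeR adjusted p = 0.169 and 0.151). Mterf1, a termination factor, had -0.66 ± 0.27 and -0.72 ± 0.24. Of 22 tested genes for the processing and decay of mitochondrial RNA none passed either, and without MPS 14 there were 4 at an unadjusted p under 0.05 in each of these comparisons. Hsd17b10, a subunit of the enzyme that cuts the front end of mitochondrial transfer RNAs, had 0.67 ± 0.22 in MPS against NC and 0.69 ± 0.20 in TZG against NC (edgeR adjusted p = 0.133 and 0.117), and Fastkd1, an RNA-binding protein of mitochondria, -0.78 ± 0.26 and -0.87 ± 0.23.

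Of 13 tested regulators of mitochondrial biogenesis, 1 rose in MPS against NC without MPS 14, where 2.06% of all genes rose. None passed in the other comparisons or with all libraries. Without MPS 14, 4 had an unadjusted edgeR p under 0.05 in MPS against NC and 4 in TZG against NC, beside 20.8% and 19% of all genes. The gene that rose was Esrra, a nuclear receptor that drives genes of oxidative metabolism, with a log2 fold change of 1.77 ± 0.31 (SE; edgeR adjusted p = 0.0218). Its value in TZG against NC was 1.25 ± 0.29 (edgeR adjusted p = 0.0723). Sirt3, a mitochondrial deacetylase, had 1.28 ± 0.31 in MPS against NC and 0.90 ± 0.29 in TZG against NC (adjusted p = 0.0601 and 0.139). The slow fibre, macrophage, lymphoid and fibroblast sums given above for MPS 10 and 11 differ from NC beside these values too, and their part in them was not tested.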

How the data were processed

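RNA of 10 rat muscle samples was sequenced after extraction with an RNeasy kit and a SMARTER mRNA-Seq library preparation, per the labels' protocols. Tools listed by the submitters' processing notes, without roles, are edgeR 3.30.3, StringTie 1.3.3b, HISAT2 and fastp. The authors deposited whole-number counts per gene and sample, FPKM per gene and sample, and log2 fold changes with q-values (p-values adjusted) for 3 comparisons, per the file headers. For chromosome MT, deposited FPKM equalled CPM per kilobase of the feature's span. How strand, overlaps and multiply placed reads (nuclear copies of mitochondrial DNA) were counted is not given in the sources used here.

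Counts of the whole table were fitted with edgeR 4.0.16 in R 4.3.3 (filterByExpr, TMM factors, 1 quasi-likelihood fit of all 3 groups, two-sided tests, Benjamini-Hochberg adjustment over all genes tested, threshold 0.05), with all libraries and again without MPS 14; the script was tested on simulated data. In the simulated data, 0% to 1.35% of genes given a 2-fold change were called with all libraries, and 5.88% to 13.0% without MPS 14. A gene that did not pass is thus not shown to be unchanged. CPM use library totals. Alternatives were DESeq2 1.42.0, limma-voom (limma 3.58.1), RLE factors, library totals, factors from features outside chromosome MT, no filter, a mean of at least 5 CPM, the compared groups only, and each library left out. All messenger and ribosomal genes were to be named whatever their result, with the 4 transfer RNA genes with most counts, and up to 4 members with the smallest p of each nuclear list. Members, lists and tests were chosen with earlier results of these data known. Of the nuclear lists, 76 of 79 respiratory genes, 18 of 19 transcription genes, 22 of 26 RNA processing genes and 13 of 14 regulators matched a name in the table. No 2 libraries of a group agreed within sampling noise (chi-square per degree of freedom at least 28.1). Figures were drawn with matplotlib 3.10.9.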

Additional observations from a re-analysis of the deposited data

Results flagged for a closer look

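In NC, the only group large enough for a test of single samples, NC 7 lay far from the other 3 libraries in 4 of 45 quantities examined, all of which concern Mt-atp6. They are its level (39232 CPM), its share of messenger counts (14.5%), the share of both ATP synthase messengers (16.3%) and the ratio of Mt-atp6 to Mt-atp8 counts (7.89). In each, the gap to the nearest NC library was over 0.829 of the group's range, Dixon's 95% limit for 4 samples. Such a limit flags about 5% of groups by chance, and these 4 quantities share their counts. The ratio was 4.97 in MPS 14, between 1.86 and 4.58 in TZG and between 1.70 and 2.69 in NC 4, 5 and 6. The cause was not tested.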

How the results depend on the processing

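No paired analysis was possible because no library number stands in more than 1 group. Without MPS 14, the count of mitochondrial genes called in MPS against NC was 2, and it was 8 in DESeq2 (8.02% of all genes), 6 with the compared groups only (8.81% of all genes), 0 with library totals, 14 at an unadjusted p under 0.05 (20.8% of all genes), and 0 to 7 with a library left out (0 without any 1 of MPS 10, MPS 11, NC 4, NC 5, NC 6 and NC 7, 4 without TZG 26, 7 without TZG 43). In TZG against NC it was 0, and 9 in DESeq2 (6.25% of all genes), 3 with a mean of at least 5 CPM (0.619%), 17 at an unadjusted p under 0.05 (19%), and 0 to 4 with a library left out (2 without TZG 26, 1 without TZG 27, 4 without TZG 43). With all libraries the count was 0 in each comparison. It was 9 at an unadjusted p under 0.05 (5.63% of all genes) in TZG against NC, and 2 in MPS against NC without MPS 14 (0 without any other library). Except for MPS 14, the share of all genes called with a library left out is not given here. Those counts therefore have no background beside them and show nothing particular to the mitochondrial genes. The median log2 fold change of the mitochondrial genes in TZG against MPS without MPS 14 was 0.33, and between -0.023 and 0.44 with a library left out, the lowest without TZG 43. The cause of these shifts was not tested. Of 229 settings tried for these counts, medians and the mitochondrial shares, 208 stayed within 1.5 times the count or 1 SD between libraries. Leaving 1 library out cannot move a group's mean share by 1 SD, so those settings are among the 208 by construction. Counts that stayed at 0 are among them too. The tally therefore does not measure how firm the 2 calls were. Depth limits the rarest genes: tRNA 1, tRNA 21 and tRNA 4 held 31, 75 and 79 counts over all 10 libraries.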
